A study of Mus musculus with 64 samples.

Results

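Microglia from the frontal cortex of mice in the condition labelled Soci were compared with those from mice in the condition labelled Cogn. The labels put 16 of the 64 RNA libraries of the series into this comparison, with 8 libraries per condition, of which 4 were collected by day and 4 by night. All were labelled C57BL/6, and the methods describe adult male mice. The labels give no treatment, meaning or age for Soci and Cogn, so both names are used as they stand, and they do not say whether a library held RNA of 1 animal or of a pool. If libraries of a group were not separate animals, the p-values measure a spread that may be technical. Per the methods, cells were taken with magnetic beads against CD11b, a surface protein that microglia share with other myeloid cells, and were kept cold during isolation.

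Microglia are the resident macrophages of the brain. In their resting state they express receptors with which they survey the tissue (P2ry12, Cx3cr1, Csf1r, Trem2) and a set of genes that tell them from macrophages of the brain's borders (Tmem119, Sall1). When challenged they can raise cytokines and chemokines, lysosomal genes and a state described in disease that includes Gpnmb, Spp1 and Lpl. Glucocorticoid hormones, whose blood level follows the day, act on them through a receptor that induces genes such as Tsc22d3, Fkbp5 and Ddit4, and the cells also carry the molecular clock.

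The 16 libraries held between 10.7 and 21.4 M counts. Soci and Cogn did not differ detectably in total count (2-sided exact permutation test within phases, p = 0.991). The locus Gm26917 took 30.4% of all counts and 3 further loci over 1% each (Gm42418, Gm23935 and mt-Rnr2). The share of Gm23935 was 1.9%, 0.113%, 3.17% and 0.801% in Night Soci and 3.09% to 5.25% in Night Cogn (exact permutation p = 0.0571 in night). Counts from protein-coding genes averaged 56.3% in Soci and 51% in Cogn (exact permutation p = 0.0747 over both phases, adjusted p = 0.188). The share of mt-Rnr2, a mitochondrial ribosomal RNA, was 1.37% to 3.6% in the 4 Night Soci libraries and 3.92% to 6.13% in the 4 Night Cogn libraries (exact permutation p = 0.0286 in night, the smallest that 4 against 4 allow, and adjusted p = 0.188 over both phases and 8 library measures). The 10 defining microglial markers summed to between 13212 and 25947 CPM in every library, where CPM stands for counts per 1 M counts of the library, scaled between libraries by TMM. Markers of border macrophages summed to between 811 and 1650 CPM, and those of lymphocytes to at most 1.93 CPM.

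Over both phases, no gene differed between Soci and Cogn past the threshold. Of 15699 genes tested by edgeR's quasi-likelihood F test with phase as a term, 0 passed an adjusted p of 0.05, the lowest adjusted p was 0.857, and DESeq2 also called 0. At an unadjusted p under 0.05 there were 657 genes, which is 4.18% of those tested, with 210 higher in Soci (1.34%) and 447 lower (2.85%). DESeq2 gave 748 at the same unadjusted level. By day alone 200 genes had an unadjusted p under 0.05 (1.27%; 206 by DESeq2) and 0 passed the adjustment by either tool. By night 1063 genes did (6.77%; 1113 by DESeq2), 248 higher in Soci (1.58%) and 815 lower (5.19%), and 0 passed by edgeR while DESeq2 called 3. The precision of these estimates bounds what could have been missed. The 95% interval of the log2 difference lay within a 2-fold change for 93% of the genes over both phases, for 80% by day and for 78.9% by night, and within a 1.5-fold change for 68.6%, 57.6% and 54.7%. Values below therefore describe genes by their estimates, since no gene changed past the threshold.

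**Figure D1:**
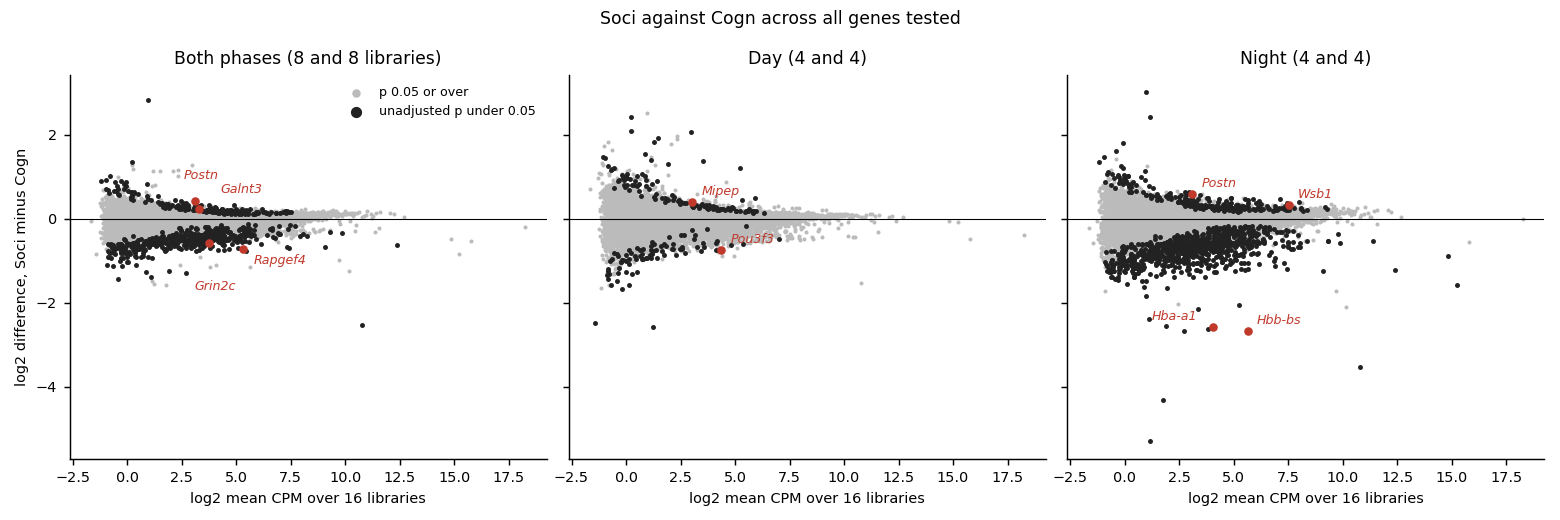
The log2 difference between Soci and Cogn (y axis) is plotted against the log2 of the mean CPM over the 16 libraries (x axis) for the 15699 genes tested, over both phases, by day and by night. Black points had an unadjusted p under 0.05 (657, 200 and 1063 genes); red points are named genes, and by night Hba-a1 and Hbb-bs lie at -2.58 and -2.67.

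Among genes of at least 4 CPM, the lowest p-values on the higher side in Soci belonged to genes with small differences. Postn, which encodes the matrix protein periostin, measured 10.7, 14.1, 12.3 and 9.26 CPM in Day Soci against 9.11, 9.57, 10.9 and 8.56 in Day Cogn. By night it measured 5.85, 8.88, 7.53 and 8.79 CPM in Soci against 4.78, 4.74, 5.12 and 6.18 in Cogn. Of the Soci libraries, 2 by day and 1 by night fell inside the range of Cogn, and the log2 difference over both phases was 0.42 ± 0.12 (SE). Galnt3, a Golgi enzyme that starts mucin-type O-glycosylation (chromosome 2, 66082766 to 66124994, minus strand, GRCm38), measured 9.74 to 11.3 CPM in the 8 Soci libraries, with a median of 11, and 7.25 to 9.68 in the 8 Cogn libraries, with a median of 9.34. It was the only gene among the 15699 tested whose 8 Soci and 8 Cogn libraries did not overlap (0.00637%). Its log2 difference was 0.23 ± 0.08, and the day and night estimates were 0.18 and 0.29. With 15699 genes tested, 1 such separation is not evidence of a difference.

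Gmppa, a regulatory partner of the enzyme that makes GDP-mannose for glycosylation, ranged from 18.9 to 25.6 CPM in Soci, with a median of 22.1, and from 15.4 to 21.7 in Cogn, with a median of 19.5. Its estimates were alike in the 2 phases, with log2 differences of 0.23 by day and 0.26 by night. Fastkd2, a mitochondrial RNA-binding protein needed for the mitochondrial ribosome, measured 11.8 to 18.7 CPM in Soci and 9.48 to 14.6 in Cogn. Its difference was 0.14 ± 0.13 by day and 0.50 ± 0.13 by night, where 3 of the 4 Soci libraries lay above all of Cogn. Cox19, an assembly factor of cytochrome c oxidase, measured 8.19 to 10.6 CPM in Soci against 6.56 to 8.95 in Cogn, and Igf2bp2, an mRNA-binding protein, 2.66 to 8.06 against 1.94 to 6.72. The log2 differences of Cox19 and Igf2bp2 were 0.26 and 0.46. The other 4 genes named on this side were Susd1 (0.38), Jade3, a subunit of a histone acetyltransferase complex (0.24), Commd7 (0.19) and Fam45a (0.16). Each of the 10 had an adjusted p of 0.857 by edgeR.

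On the lower side the 10 genes of lowest p included neuronal and astrocytic genes, with larger differences and larger SEs. Grin2c, a subunit of the NMDA glutamate receptor, measured 8.96, 5.77, 7.39 and 8.03 CPM in Day Soci against 12, 9.19, 9.06 and 13.5 in Day Cogn. By night the values were 16.9, 10.4, 18.4 and 11.1 CPM in Soci and 30.5, 24.2, 13.9 and 18.4 in Cogn. The conditions did not overlap by day and overlapped by night, and the log2 difference over both phases was -0.58 ± 0.17. Rapgef4, an exchange factor for the small GTPase Rap that cAMP activates, gave the largest estimate of the 10, at -0.73 ± 0.24. It measured 16.9 to 20.7 CPM in Day Soci and 18.1 to 28.9 in Day Cogn, and by night 43.8, 14.8, 51.5 and 40.3 CPM in Soci against 80, 124, 66.3 and 40.3 in Cogn. Night Soci replicate 2 was the lowest of the night libraries for this gene, and Night Cogn replicate 4 lay among the Soci libraries.

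Gda, guanine deaminase of purine breakdown, differed in its estimates mostly by night. It measured 4.45, 2.86, 5.39 and 4.14 CPM in Night Soci and 8, 6.96, 8.36 and 8.65 in Night Cogn, groups that did not overlap, with a log2 difference of -0.93 ± 0.20. The adjusted p was 0.642 by edgeR and 0.037 by DESeq2. By day its values were 2.25 to 4.26 CPM in Soci and 3.4 to 4.5 in Cogn, with a difference of -0.16 ± 0.22. Among the rest were Jph3, a junctophilin that holds the endoplasmic reticulum of neurons to the cell membrane (-0.56), Pou3f3, a transcription factor of neural cells (-0.59), Cspg5, a neural proteoglycan (-0.51), and Olfm1, a secreted neural glycoprotein (-0.48). Flt4, a receptor of vascular endothelial growth factors, differed by -0.57, and the adhesion genes Nectin3 and Pcdhgc3 by -0.51 and -0.49. Flt4 measured 4.55 to 13 CPM in the Soci libraries and 10 to 16 in the Cogn libraries.

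**Figure D2:**
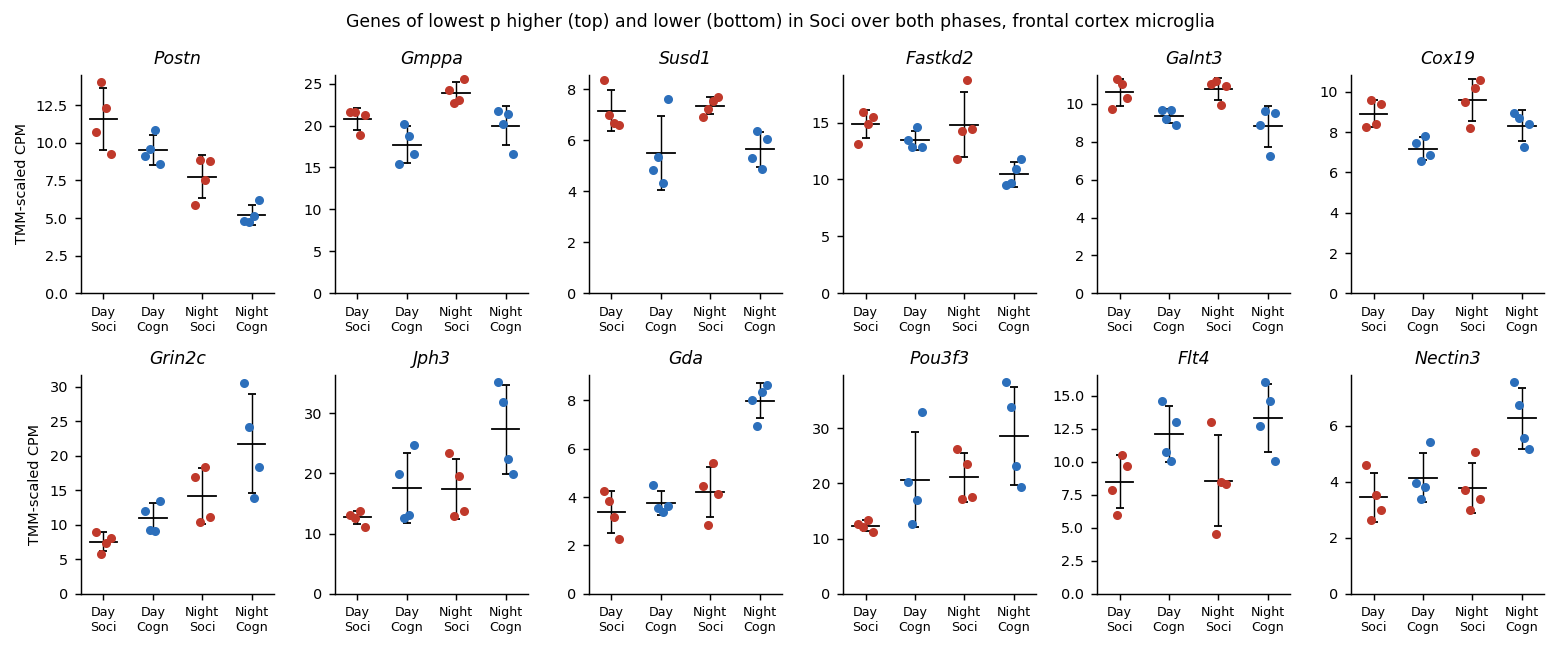
TMM-scaled CPM (y axis) of the 6 genes of lowest p higher in Soci (top) and lower in Soci (bottom) over both phases; points are libraries in 4 groups of 4, and bars show the mean and SD. Galnt3 lies between 9.74 and 11.3 in Soci and between 7.25 and 9.68 in Cogn, whereas Grin2c spreads most in Night Cogn, from 13.9 to 30.5.

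Over all genes tested the estimates over both phases ranged from -2.53 to 2.83. Some large ones, named here after their values were seen, belonged to genes of uneven or low counts. Capn11, a calpain protease, differed by 2.83 ± 1.04 on the log2 scale at a mean of 1.96 CPM. Scrg1 and Baalc, both expressed in neural cells, differed by -1.45 ± 0.37 and -1.27 ± 0.33 at means of 0.74 and 1.82 CPM. Each had an adjusted p of 0.857 by edgeR. The 2 non-coding genes of lowest p at 4 CPM or more were 2310009A05Rik (0.30 ± 0.10) and Gm10524 (0.26 ± 0.09), and for both the Day Soci libraries lay above all Day Cogn libraries.

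By day the log2 differences of all genes tested had 5% and 95% quantiles of -0.44 and 0.32. In 216 genes (1.38%) the 4 Day Soci and 4 Day Cogn libraries did not overlap, with Soci higher in 149 (0.949%) and lower in 67 (0.427%). Permuted labels separate 4 from 4 libraries with a probability of 0.0286, and the share of 1.38% was below it. Mipep, a peptidase that trims proteins on import into mitochondria, had the lowest p of all genes by day: it measured 8.61, 9.92, 9.33 and 8.78 CPM in Soci against 7.13, 7.33, 6.23 and 7.19 in Cogn, a log2 difference of 0.40 ± 0.11. The night difference of Mipep was -0.09 ± 0.11. Srp19, a protein of the signal recognition particle, measured 11.8 to 12.3 CPM in Day Soci and 7.46 to 10.8 in Day Cogn (0.36). Mgme1, an exonuclease that maintains mitochondrial DNA, measured 14.5 to 18.7 CPM against 12.1 to 13.6 (0.32). For Mipep, Srp19 and Mgme1 the groups did not overlap by day and did so by night. On the lower side by day were Pou3f3 (-0.74), Ccdc177 (-0.72), Zc3h6 (-0.49) and Cwf19l1 (-0.39), of which Zc3h6 had a night estimate of the other sign, 0.31. The adjusted p of every gene named by day was 1.00 by edgeR.

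By night 4 haemoglobin genes were among the 5 genes of lowest p. Hba-a1 (chromosome 11, 32283511 to 32284465, plus strand, GRCm38) measured 7.46, 6.46, 4.37 and 4.54 CPM in Night Soci and 18.3, 30, 30.4 and 59.4 in Night Cogn. Hbb-bs measured 14.5, 15, 14.4 and 22.7 CPM in Night Soci and 50.6, 82.7, 86.2 and 204 in Night Cogn. The groups did not overlap for either gene, and the log2 differences were -2.58 ± 0.51 and -2.67 ± 0.57. Hba-a2, Hbb-bt and Alas2, which encodes the haem-synthesis enzyme of red blood cell precursors, differed by -2.64, -2.67 and -2.56. These genes mark red blood cells, and the α- and β-globin pairs are near-identical copies between which reads may have been split, so single values are uncertain. The adjusted p was 0.642 for all 5 by edgeR. DESeq2 called Hba-a1 and Alas2, both with an adjusted p of 0.037. By day the same genes spread over both conditions, Hba-a1 from 3 to 30.9 CPM in Soci and from 8.56 to 13.5 in Cogn, with a difference of 0.41 ± 0.49.

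Genes higher in Night Soci by their estimates had smaller differences and less spread. Wsb1, an adaptor of a ubiquitin ligase, measured 171, 219, 217 and 214 CPM in Night Soci and 150, 164, 155 and 180 in Night Cogn. Night Soci replicate 1 alone fell inside the Cogn range, and the log2 difference was 0.34 ± 0.09, with an adjusted p of 0.659 by edgeR and of 0.043 without that library. By day Wsb1 measured 175 to 183 CPM in Soci and 177 to 185 in Cogn, a difference of -0.01 ± 0.09. Plk3, a stress-responsive polo-like kinase, measured 17.2 to 27.5 CPM in Night Soci and 13.6 to 16.5 in Night Cogn, groups that did not overlap (0.48 ± 0.13). In all, 318 genes (2.03%) had night groups that did not overlap, with Soci higher in 142 (0.905%) and lower in 176 (1.12%). This share too was below the 0.0286 that permuted labels give.

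Whether the Soci to Cogn difference itself differed between day and night was tested with an interaction term. No gene passed (0 of 15699 by edgeR and by DESeq2), and 445 had an unadjusted p under 0.05 (2.83%; 469 by DESeq2), 343 with the higher difference by day (2.18%) and 102 with the lower (0.65%). Ddit4, an inhibitor of the growth regulator mTOR that stress and glucocorticoids induce, measured 84.8, 102, 47.4 and 48.1 CPM in Day Soci and 36.3, 34.5, 21.1 and 30 in Day Cogn. By night it measured 9.23, 7.58, 11.6 and 8.5 CPM in Soci and 14.3, 18.2, 109 and 11.9 in Cogn. All Soci libraries thus lay above Cogn by day and below it by night, with log2 differences of 1.22 ± 0.53 and -2.06 ± 0.56, and Night Cogn replicate 3 stood far above its group. The difference between the phases was 3.27 ± 0.77, with an adjusted p of 1.00 by edgeR, and it was 1.87 without that library. Nfkbia, the inhibitor of NF-κB, had estimates of 0.44 ± 0.17 by day and -0.50 ± 0.17 by night, with overlapping groups in both phases.

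Hlf, a transcription factor of clock output, measured 23.4 to 30.3 CPM in Day Soci and 21.4 to 28 in Day Cogn. By night it measured 12.9, 12.3, 12.4 and 14 CPM in Soci against 19, 25.9, 17.4 and 16.3 in Cogn. The night groups did not overlap (-0.61 ± 0.14), and the difference between phases was 0.76 ± 0.19. Across genes, differences estimated from the 8 day libraries and from the 8 night libraries, which share no library, correlated with a Pearson r of 0.140 over 14465 genes, and 58.1% had the same sign. Genes are not independent replicates, so this is a description.

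Genes of the microglial resting state were similar in level, with small positive estimates. All 20 homeostatic genes on the list were tested, and 0 had an unadjusted p under 0.05 over both phases. Their log2 differences ranged from 0.06 to 0.21, with a median of 0.13 beside 0.02 over all genes, and the 95% interval of each lay within a 2-fold change. The median was positive in 31 of 32 settings and -0.00 without the replicates numbered 2. P2ry12, the ADP receptor of surveying microglia, measured 1707, 2902, 2710 and 1748 CPM in Day Soci and 2411, 1882, 2110 and 2162 in Day Cogn. By night it measured 1605, 2569, 2266 and 1930 CPM in Soci and 1435, 1494, 1385 and 2568 in Cogn. The conditions overlapped in both phases, and Night Cogn replicate 4 had the level of the highest night Soci library. P2ry12 is named here as a marker and not by its p. By night the median of the list was 0.22, and 2 of 20 genes had an unadjusted p under 0.05 on the higher side (background 1.58%), Irf8 and Siglech, and 0 without the replicates numbered 2.

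Genes of the state described in disease had small positive estimates as well. Of 19 tested, 16 were positive over both phases and 18 by day (8762 and 9066 of all 15699 genes), with medians of 0.14 in each. Over both phases 2 had an unadjusted p under 0.05, both higher in Soci (background 1.34%), Gpnmb and Lpl. Without the replicates numbered 2 the median over both phases was -0.0069 and 0 genes were under 0.05 on that side, and without Day Soci replicate 2 the day median was 0.00065. By night 14 were positive, and 2, named after their values were seen, had an unadjusted p under 0.05 on the lower side (background 5.19%; 0 without the replicates numbered 2). These were Fabp5, a fatty acid binding protein, at -0.99 and the receptor kinase gene Axl at -0.49. On the higher side 1 gene was under 0.05 by night (background 1.58%), and 0 without the replicates numbered 1. Gpnmb, a membrane glycoprotein of lipid-loaded phagocytes, measured 5.31, 2.93, 3.52 and 0.272 CPM in Day Soci against 0.549, 1.54, 0.453 and 0.242 in Day Cogn. By night it was 0.402 to 0.751 CPM in Soci and 0.0435 to 0.853 in Cogn. The day difference was 2.08 ± 0.70, with 3 Soci libraries above all of Cogn and the other at the level of Cogn, and the night difference 0.31 ± 0.82. Several of these Gpnmb levels lay near or below that of 3 counts (0.13 to 0.329 CPM), so both differences are uncertain. Lpl, lipoprotein lipase, measured 5.92 to 14.5 CPM in Soci and 4.86 to 10.9 in Cogn (0.39 ± 0.16). The list of phagocytosis genes, 25 tested, had a median of 0.11 and a single gene under 0.05, near the share over all genes (4.18%). The median was 0.0047 without the replicates numbered 2, and the count was 0 without those numbered 1. The gene was Mfge8, a bridging protein that marks dying cells for uptake, at -0.30 ± 0.13. Mfge8 measured 14.6 to 18.3 CPM in Night Soci and 20.5 to 34.5 in Night Cogn, and the groups did not overlap (-0.61 ± 0.15). Lysosomal genes had positive estimates in 25 of 25 (8762 of all 15699 genes), from 0.01 to 0.15, and 0 under 0.05. Their median of 0.11 was -0.05 without the replicates numbered 2. The lists of complement (15 tested), antigen presentation (16), purinergic receptors and channels (15), interferon-stimulated genes (20) and cell cycle genes (15) held 0 genes with an unadjusted p under 0.05 over both phases, with medians of 0.12, 0.06, 0.13, -0.01 and 0.04.

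Cytokine and chemokine genes leaned to the Soci side in their estimates. Of 20 on the list 15 passed the count filter. All 15 had a positive difference over both phases (median 0.23), beside 8762 of all 15699 genes. Ccl4, Tnf and Cxcl16 had an unadjusted p under 0.05 (background 1.34% higher). The median was 0.099 without the replicates numbered 3, and 1 gene was under 0.05 without those numbered 2. Ccl4, a chemokine that attracts myeloid cells and T cells, measured 1.91, 2.53, 2.66 and 2.52 CPM in Day Soci against 1.43, 1.78, 1.58 and 1.94 in Day Cogn. By night it measured 1.72, 1.69, 4.62 and 1.78 CPM in Soci and 1.3, 0.869, 0.938 and 1.24 in Cogn. Its groups did not overlap by night and overlapped by day through 1 library each, with differences of 0.51 ± 0.31 and 1.15 ± 0.32. Tnf, the inflammatory cytokine, measured 2.68, 3.77, 3.6 and 2.93 CPM in Night Soci against 1.48, 1.74, 1.62 and 2.63 in Night Cogn, which did not overlap (0.79 ± 0.21). By day Tnf was at 1.57 to 1.94 CPM in Soci and 1.42 to 2.01 in Cogn (0.04 ± 0.23). Cxcl16, a membrane-bound chemokine, differed by 0.27 ± 0.13. Of the 15 genes, 4 had an unadjusted p under 0.05 by night, all higher in Soci (background 1.58%), with a list median of 0.42. The night median was 0.12, with 2 genes under 0.05, when the replicates numbered 3 were left out. It was 0.22, with 4 genes under 0.05 on the higher side, when a score of all other cell types was a covariate.

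Glucocorticoid-responsive genes had negative estimates by night and not by day. By night 12 of 14 tested genes were negative (7531 of all 15699 genes), and the median was -0.58. Of the 14, 9 were lower with an unadjusted p under 0.05, beside 5.19% of all genes. By day the median was 0.13, and 2 genes had an unadjusted p under 0.05, both higher in Soci (background 0.739%), Ddit4 and Nfkbia. Without the replicates numbered 2 these counts were 5 by night and 0 by day. The genes described next were chosen after their values were seen. Tsc22d3, which encodes the glucocorticoid-induced leucine zipper, measured 13.1, 14.7, 21.3 and 13.2 CPM in Night Soci and 14.7, 22.5, 69.3 and 23.5 in Night Cogn (-1.06 ± 0.35). Its day values were 69.1 to 114 CPM in Soci and 55.7 to 80.1 in Cogn (0.38 ± 0.33). Fam107a, a gene of astrocytes that glucocorticoids induce, measured 39.3, 8.84, 44.4 and 36.2 CPM in Night Soci and 80.1, 116, 69 and 33.5 in Night Cogn (-1.23 ± 0.41). Fkbp5, a chaperone that feeds back on the receptor, measured 29.8 to 66.7 CPM in Night Soci and 30.5 to 97.9 in Night Cogn (-0.17 ± 0.33), and the kinase gene Sgk1 127 to 201 against 136 to 198 (0.07 ± 0.15). Night Cogn replicate 3 was the highest night library for Tsc22d3, Fkbp5 and Ddit4. Astrocyte markers also had lower estimates in Night Soci, as given below. Among Night Cogn libraries the summed level was highest in replicate 3 for this list (761 CPM) and in replicate 2 for astrocyte markers (2286 CPM). With a score of all other cell types as a covariate the night median was -0.32 and 1 gene had an unadjusted p under 0.05. A link between the 2 lists was not tested.

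**Figure D3:**
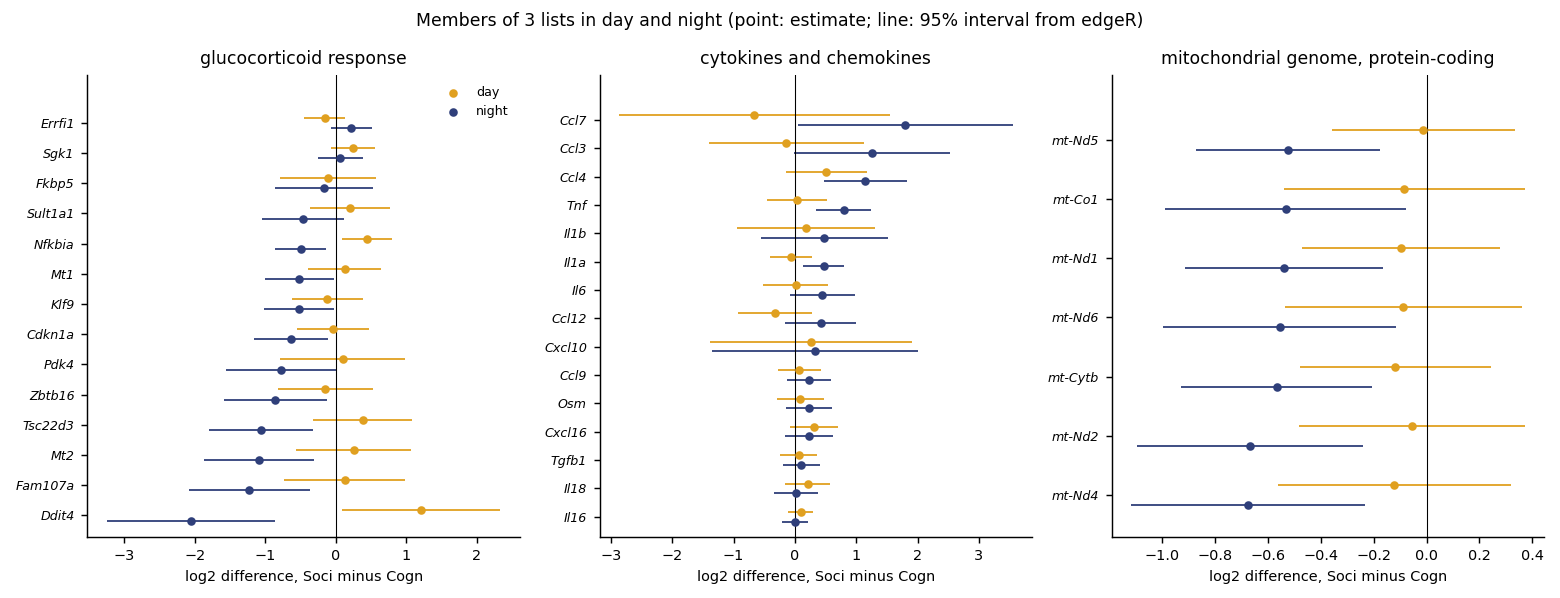
Log2 difference between Soci and Cogn (x axis) for the tested members of 3 lists, with day and night shown apart; points are edgeR estimates and lines 95% intervals. Night estimates are negative for 12 of 14 glucocorticoid-responsive genes and 7 of 7 mitochondrial genes and positive for 15 of 15 cytokine genes, and the day estimates of the mitochondrial genes lie between -0.12 and -0.01.

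Clock genes had mostly negative estimates by night and not by day. By night 15 of 18 tested were negative with a median of -0.20, and by day 9 of 18 with a median of 0.01. Over all 15699 genes, 7531 were negative by night and 6633 by day. The night median was 0.0082 without Night Soci replicates 2 and 4 and 0.024 with a score of all other cell types as a covariate. Hlf and Per1, a core repressor of the clock, were lower at an unadjusted p under 0.05 by night (background 5.19%), and the repressor Bhlhe41 was higher (background 1.58%). The differences of Per1 and Bhlhe41, named after their values were seen, were -0.62 ± 0.24 and 0.20 ± 0.09. Without the replicates numbered 2, the counts were 1 lower and 0 higher, and without Night Soci replicate 4 the median was -0.081. Over both phases 1 of 18 had an unadjusted p under 0.05, beside 2.85% of all genes lower, and 0 without the replicates numbered 3. This was Bhlhe40, a repressor of clock-driven transcription, at -0.39 ± 0.18. Bhlhe40 measured 4.03 to 10.2 CPM in Soci and 4.48 to 10.7 in Cogn. The list's median over both phases was -0.09, or 0.04 when libraries were scaled by their totals alone, and the 95% interval of each of the 18 lay within a 2-fold change. Immediate early genes, which respond within minutes to stimulation, had a median of -0.08 over 25 tested, or 0.03 with totals alone. Atf3, a stress-induced transcription factor among them, measured 4.56 to 8.2 CPM in Soci and 2.86 to 6.47 in Cogn (0.43 ± 0.17). By night 3 immediate early genes were lower and 1 higher at an unadjusted p under 0.05 (background 5.19% and 1.58%). The lower count was 1 without the replicates numbered 2, and the higher count 0 without those numbered 3. Of the receptors for neuromodulators and hormones 20 were tested with a median of -0.10, or 0.03 with totals alone, and Thra, a thyroid hormone receptor, differed by -0.39 ± 0.16. Heat shock and cold-inducible genes (13 tested) had a median of 0.03 and 0 under 0.05.

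The mitochondrial genome had lower estimates in Soci by night. Of its 13 protein-coding genes, 6 were listed at 0 in every library (mt-Co2, mt-Atp8, mt-Atp6, mt-Co3, mt-Nd3 and mt-Nd4l), although all cells use them, so only 7 could be tested. By night all 7 had an unadjusted p under 0.05 on the lower side (background 5.19%), with differences from -0.68 to -0.52 and a median of -0.56. Without the replicates numbered 2 the median was -0.34 and 1 of 7 was under 0.05. mt-Cytb, a subunit of respiratory complex III, measured 862, 752, 1109.6 and 877 CPM in Night Soci and 1276, 1594, 1202 and 1263 in Night Cogn, which did not overlap (-0.57 ± 0.17). By day mt-Cytb measured 646 to 733 CPM in Soci and 588 to 1055 in Cogn (-0.12 ± 0.17). mt-Nd1 and mt-Nd4, subunits of complex I, differed by night by -0.54 and -0.68. These genes are transcribed as joint precursors and are not independent of each other. With a score of all other cell types as a covariate the night median was -0.11 and 0 of 7 had an unadjusted p under 0.05.

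Nuclear genes of the respiratory chain did not show the same estimates. Their median was -0.02 by night over 76 tested, with 4 under an unadjusted p of 0.05 on the lower side, near the share over all genes (5.19%), and 0 without Night Soci replicate 4. Cytosolic ribosomal protein genes had a night median of -0.07 over 80 tested, with 0 under 0.05, and glycolysis genes of -0.08 over 18. Of the glycolysis genes, 3 were lower and 1 higher at an unadjusted p under 0.05 (background 5.19% and 1.58%). The lower count was 1 without the replicates numbered 2, and the higher count 0 without those numbered 1. Cholesterol genes had a night median of -0.17 over 20, with 6 lower at an unadjusted p under 0.05 (background 5.19%). The count was 0 without Night Soci replicate 4, and the median was -0.062 without the replicates numbered 2. Srebf2, the transcription factor that drives cholesterol synthesis, measured 32.1 to 42.4 CPM in Night Soci and 40.5 to 52 in Night Cogn (-0.34 ± 0.12). Hmgcs1, an enzyme of that pathway, differed by -0.30 by night. With totals alone as the scaling the night medians of cholesterol, glycolysis, ribosomal and respiratory chain genes were -0.05, 0.03, 0.05 and 0.09.

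**Figure D4:**
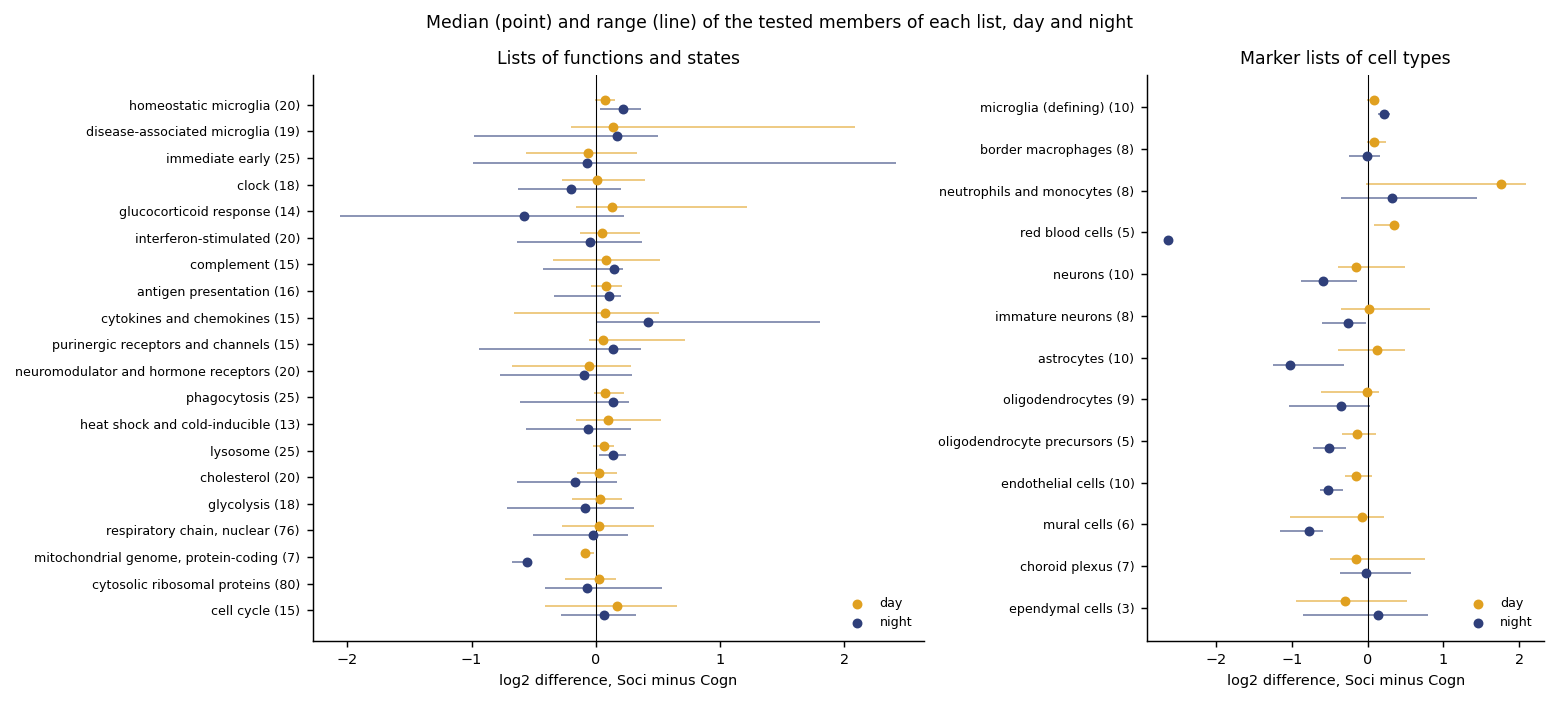
Median (point) and range (line) of the log2 difference between Soci and Cogn over the tested members of each list, by day and by night, with the number tested in brackets. By night the medians of red blood cell (-2.64), astrocyte (-1.03) and mural cell (-0.77) markers lie farthest below 0, and by day those of neutrophil and monocyte markers (1.75) farthest above it.

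Markers of astrocytes, neurons, oligodendrocytes and vascular cells had lower estimates in Night Soci than in Night Cogn, beside 5.19% of all genes lower at an unadjusted p under 0.05. In bulk RNA, fewer cells of a type and less RNA per cell cannot be told apart. Astrocyte markers had a night median of -1.03, with 8 of 10 lower at an unadjusted p under 0.05, and a day median of 0.13 with 0. Without the replicates numbered 2 the night median was -0.46 and 1 gene was under 0.05. Slc1a2, the glutamate transporter of astrocytes, measured 536, 164, 588 and 555 CPM in Night Soci and 1093, 1847, 975 and 465 in Night Cogn (-1.25 ± 0.38). Night Soci replicate 2 was far below the other Soci libraries and Night Cogn replicate 4 lay inside the Soci range. By day Slc1a2 was at 194 to 391 CPM in Soci and 215 to 353 in Cogn (-0.08 ± 0.38). Gfap, a filament protein of astrocytes, measured 3.99 to 11.1 CPM in Night Soci and 9.27 to 22.3 in Night Cogn (-1.04 ± 0.44).

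Vascular markers had the same sign by night. Mural cell markers had a night median of -0.77, with 5 of 6 lower at an unadjusted p under 0.05, and endothelial markers a median of -0.53, with 3 of 10 (background 5.19%). The mural count was 0 without Night Soci replicate 2. The endothelial count was 0, with a median of -0.26, without the replicates numbered 2. Abcb1a, the efflux pump of brain endothelium, measured 88.8, 35.9, 52.9 and 55.3 CPM in Night Soci and 76.2, 102, 92.7 and 78 in Night Cogn. Abcc9, a subunit of a potassium channel of pericytes, measured 2.57, 1.13, 2.4 and 1.21 CPM against 3.3, 2.56, 3.58 and 3.55. Night Soci replicate 1 overlapped with Night Cogn for both genes, and the other Soci libraries lay below Cogn. Neuronal markers had a night median of -0.58, with 4 of 10 lower at an unadjusted p under 0.05 (background 5.19%). The count was 1 without the replicates numbered 2, and the median was -0.35 without Night Cogn replicate 1. Slc17a7, the vesicular glutamate transporter of cortical neurons, measured 41.4, 18.8, 34.8 and 24.6 CPM in Night Soci and 61, 55.1, 37.4 and 25.5 in Night Cogn (-0.59 ± 0.29).

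Oligodendrocyte markers had a night median of -0.36, with 4 of 9 lower at an unadjusted p under 0.05 (background 5.19%), their precursors one of -0.52 with 0 of 5, and immature neurons one of -0.26 with 2 of 8. The median of the oligodendrocyte markers was -0.20 without Night Cogn replicate 2, that of their precursors was -0.31 without the replicates numbered 2, and the count of immature neuron markers was then 0. Choroid plexus and ependymal markers did not have lower estimates as a list. Their night medians were -0.03 over 7 and 0.14 over 3, with 0 lower at an unadjusted p under 0.05 in either and 1 ependymal gene higher (background 1.58%), Cfap126. The summed level of the 5 red blood cell genes was 24.7 to 35.8 CPM in Night Soci and 95.6 to 357 in Night Cogn, with no overlap. The summed astrocyte level was 300 to 844 CPM in Night Soci and 670 to 2286 in Night Cogn. Microglial markers summed to 14400 to 21200 CPM in Night Soci and 13212 to 21703 in Night Cogn. Night Cogn replicate 4 was the highest night library for microglial markers and the lowest of its group for astrocytes and neurons. With a score of all other cell types as a covariate, the number of genes at an unadjusted p under 0.05 by night was 249 in place of 1063, and over both phases 127 in place of 657.

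**Figure D5:**
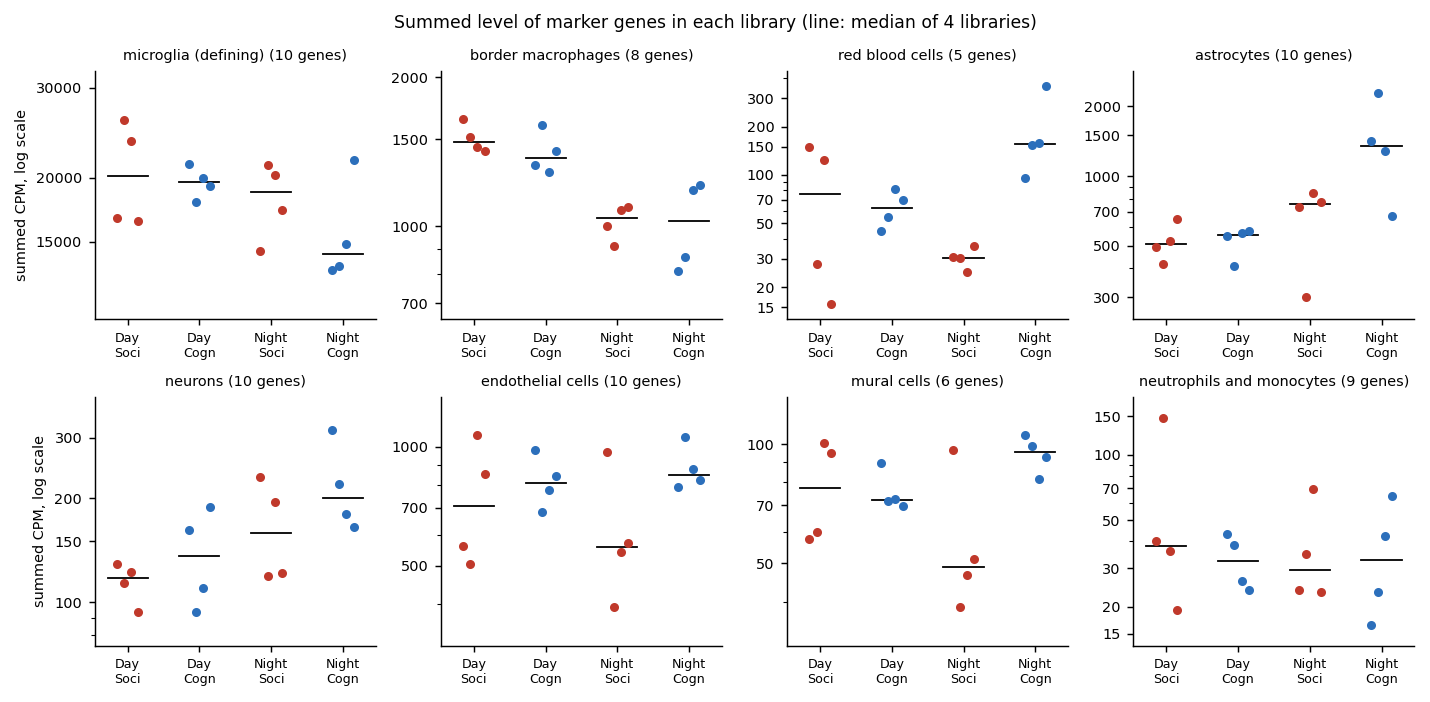
Summed CPM of 8 marker lists (y axis, log scale) in each library of the 4 groups; lines are medians. Red blood cell markers lie at 24.7 to 35.8 CPM in Night Soci and at 95.6 to 357 in Night Cogn, while microglial markers overlap in all groups and 1 Day Soci library stands at 147 CPM for neutrophil and monocyte markers.

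Myeloid cells other than microglia gave a different picture. Border macrophage markers had medians of 0.08 by day and -0.01 by night over 8 genes, with 0 under an unadjusted p of 0.05. Neutrophil and monocyte markers had a median of 1.75 by day over 8 tested, and 2 were higher in Soci at an unadjusted p under 0.05 (background 0.739%). Without the replicates numbered 2 the day median was -0.36 and 0 were higher. S100a8, a calcium-binding protein of neutrophils, measured 6.87, 48.2, 1.72 and 1.5 CPM in Day Soci and 2.26 to 5.02 in Day Cogn. The list summed to 147 CPM in Day Soci replicate 2 and to at most 43.3 in the other 7 day libraries, and over both phases its median was 1.01, or -0.01 without the replicates numbered 2. Choroid plexus markers summed to 381 CPM in Day Soci replicate 4 and 478 in Day Cogn replicate 4, and to at most 155 in the other 14 libraries.

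The other conditions of the same region, labelled Ctr0 and Ctr1, give the range in which these levels lie, as means of 4 libraries each on a scale set over all 32 cortical libraries. Galnt3 was at 10.6 CPM in Day Soci, 9.34 in Day Cogn, 10.4 in Day Ctr0 and 9.39 in Day Ctr1, and by night at 10.6, 8.86, 9.86 and 8.59 in the same order. Postn was at 7.65, 5.24, 5.74 and 6.52 CPM by night. Soci had the highest of the 4 means in each of these, and for Galnt3 the mean of Ctr0 lay closer to Soci than to Cogn. Both genes were named by their p for higher levels in Soci in these same libraries, so the rank of Soci is no separate support. Hba-a1 by night was at 5.63 CPM in Soci, 34.9 in Cogn, 13.2 in Ctr0 and 38.3 in Ctr1. mt-Cytb by night was at 889 CPM in Soci, 1342 in Cogn, 1308 in Ctr0 and 1317 in Ctr1. Slc1a2 by night was at 455, 1099.8, 939.8 and 547 CPM in the same order. These levels are given with no test.

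The same comparison in the hippocampus was set beside the cortex with an interaction term over 32 libraries. No gene differed between the regions past the threshold (0 of 16753 by edgeR and by DESeq2), and 189 had an unadjusted p under 0.05 (1.13%; 227 by DESeq2), 99 with the higher difference in the cortex (0.591%) and 90 with the lower (0.537%). Lowest in p were Nup107, a nuclear pore protein, whose difference was lower in the cortex by 0.37 ± 0.11 on the log2 scale, and Pcnx4, Lpl and Susd1, whose differences were higher in the cortex by 0.39, 0.58 and 0.43. Ccl4 differed between regions by 0.75 ± 0.30, and Hba-a1 by 0.13 ± 0.73. Estimates from the 16 cortical and 16 hippocampal libraries correlated across 15603 genes with a Pearson r of 0.569, and 70.9% had the same sign. Libraries of the regions with the same group and number may come from the same animals, which the labels do not say, so these are not independent. Their deviations from the group means had a median correlation of -0.02, against 0.00 for other numbers of the group.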

How the data were processed

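The analysis used 16 of 64 total-RNA libraries, the frontal cortex ones labelled Soci or Cogn, with the Soci and Cogn libraries of the hippocampus for the comparison of regions and the other cortical libraries for levels. The deposited values are raw counts per gene, which the authors made with STAR 2.7.3a and featureCounts of Subread 2.0.0 on GRCm38.p5 after depletion of ribosomal RNA; strand and multimapping settings are not given in the sources used here. Of 49671 genes, 49412 matched GENCODE M21 and 259 did not.

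Counts were filtered with filterByExpr, scaled by TMM and tested with edgeR 4.0.16 (R 4.3.3, limma 3.58.1), using 2-sided quasi-likelihood F tests and Benjamini-Hochberg adjustment over all genes tested at a threshold of 0.05. Over both phases the fit had phase as a term, day and night came from 1 fit of 4 groups, and phase and region differences from interaction terms. Errors after ± are SEs of log2 differences. A count of 3 corresponds to 0.13 to 0.329 CPM. Scripts were tested on simulated data.

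Named genes with a mean of at least 4 CPM were the protein-coding 10 of lowest p in each direction over both phases, 4 in each direction by day and by night and 4 of each interaction, and 2 non-coding genes. Without that minimum, up to 3 members of each of 34 lists with an unadjusted p under 0.05 were named; 1 gene that this rule selects is not reported here. The members, lists and rules were chosen with earlier results of these data known. Alternatives were DESeq2 1.42.0, other scalings and filters, libraries left out, a block for the replicate number, no phase term and scores of other cell types as covariates. The use by night of the score of all other cell types was added after seeing the data.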

Additional observations from a re-analysis of the deposited data

Results flagged for a closer look

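In 336 groups of 4 libraries the gap between an extreme library and its nearest neighbour was set against the group's range, and 18 exceeded Dixon's critical value, where chance gives about 16.8. Among library measures these were the share of Gm26917 in Night Soci replicate 4 (23.9%) and of mt-Rnr2 in Night Cogn replicate 2 (6.13%). Among summed markers they were neutrophils and monocytes in Day Soci replicate 2 (147 CPM), oligodendrocytes in Night Cogn replicate 2 (374), oligodendrocyte precursors in Day Soci replicate 4 (25.5), mural cells in Day Cogn replicate 1 (89.6), and choroid plexus in Day Soci replicate 4 (381) and Day Cogn replicate 4 (478).

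Single genes that stood apart were Ddit4 in Night Cogn replicate 3 (109 CPM), Wsb1 in Night Soci replicate 1 (171), Ccl4 in Night Soci replicate 3 (4.62), Hbb-bs in Night Soci replicate 4 (22.7) and Cxcl16 in Night Cogn replicate 4 (17.8). Slc1a2 did so in Day Cogn replicate 2 (215 CPM) and Night Soci replicate 2 (164), Gfap in Day Cogn replicate 4 (18.7), Gmppa in Day Soci replicate 3 (18.9) and Pcnx4 in Night Soci replicate 4 (7.41).

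Ddit4 had Soci libraries all above Cogn by day and all below by night. The difference between phases was 3.27 on the log2 scale and did not pass the interaction test (edgeR adjusted p = 1.00); it was 1.87 without Night Cogn replicate 3.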

How the results depend on the processing

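Over both phases, by day, for the phase difference and for the region difference, 0 genes passed the threshold under every alternative run. By night the count was 3 with DESeq2 and 0 to 17 when a library or replicate number was left out; the 17 came without Night Soci replicate 1, with 14 lower in Soci, among them Klf2 at -1.48, and 3 higher. The cause was not tested. The replicate numbers were not treated as pairs in the main fits. Of 24 same-number pairs 9 had correlated deviations over 0.1, with a median of -0.04 and a highest value of 0.608. Of 16 libraries 2 were closest to their own number. Whether libraries of one number shared a batch was not tested. The block for the replicate number gave 0 genes past the threshold in each comparison and 761 in place of 657 at an unadjusted p under 0.05 over both phases.

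Counts at an unadjusted p under 0.05 depended on single libraries. Over both phases they were 1523 without Night Soci replicate 1, 1203 without the replicates numbered 4, 1091 without Day Cogn replicate 2, 1036 without Night Cogn replicate 4, 302 without Night Soci replicate 2, 303 without Night Soci replicate 4, 383 and 388 without Night Cogn replicates 1 and 2, 419 without Day Cogn replicate 4 and 434 without the replicates numbered 2. By night they were 2403 without Night Soci replicate 1, 1988 without Night Cogn replicate 4, 473 without Night Soci replicate 2, 292 without the replicates numbered 2, 598 without Night Soci replicate 4 and 646 without Night Cogn replicate 2. By day the count was 402 without Day Cogn replicate 2. For the difference between phases it ranged from 172 without the replicates numbered 2 to 990 without Night Soci replicate 1, and for that between regions from 99 to 1125, without the replicates numbered 3 and 4. For named genes, each in the comparison that named it, 2209 values kept their direction and side of the threshold, 2 came to pass it (Hba-a1 with DESeq2, Wsb1 without Night Soci replicate 1) and 0 reversed. The genes were picked by their p in these same libraries, so kept directions are no separate support. DESeq2 also called the night differences of Gda (-0.94) and Alas2 (-2.57), which are named from the comparison over both phases. Scaling by totals alone moved the median of all genes over both phases from 0.02 to 0.14.

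With the score of all other cell types as a covariate, night medians were 0.24 for immediate early, 0.024 for clock, -0.32 for glucocorticoid, 0.11 for heat shock, -0.062 for cholesterol, -0.11 for mitochondrial genome, -0.067 for neuron, -0.42 for astrocyte, -0.017 for oligodendrocyte, 0.20 for precursor, -0.089 for endothelial, -0.20 for mural, 2.39 for choroid plexus and 0.62 for ependymal genes. Over both phases they were -0.025 for glucocorticoid, -0.054 for mitochondrial and 1.34 for choroid plexus genes. By night, 4 cytokine genes stayed higher at an unadjusted p under 0.05 (median 0.22). All 5 red blood cell genes stayed lower (median -2.53). That score was the mean of the cell type marker lists other than the microglial one. Medians of those marker lists were therefore not independent of the score and test nothing about them. Most of those lists had negative night medians, so the score is not independent of the condition either. Without Night Soci replicates 2 and 4 the night medians of immediate early and clock genes were 0.19 and 0.0082. With totals alone, cholesterol genes were at 0.038 over both phases and -0.046 by night, and nuclear respiratory chain genes at 0.12 and 0.095. The neuron score gave 0.31 for ependymal genes over both phases.
Leaving out a library or a replicate number gave night medians of 0.12 to 0.56 for cytokines, -0.23 to -0.062 for cholesterol, -0.13 to 0.060 for nuclear respiratory chain, -0.12 to 0.26 for cell cycle and -0.54 to 0.59 for ependymal genes, and over both phases -0.014 to 1.57 for neutrophils and monocytes and -0.71 to 0.22 for ependymal genes.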
